A study of Oryza sativa Japonica Group with 15 samples.

Results

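Calmodulins and calmodulin-like proteins are the small Ca2+ sensors of the plant cell, and their transcripts were followed in the rice shoot base before and after seedlings were laid horizontally. The genes are those whose symbol or synonym in the RefSeq rice annotation is CML, CAM or OsCAM followed by a number. The family itself was chosen with earlier results of these data known, so the count of its calls is not independent evidence. There are 29 such genes, of which 26 are read by at least 1 probe set of the rice genome array, against 17905 genes in all with a probe set of their own. CML2, CML21 and CML22 have none. A gene with more than 1 probe set is represented by its brightest, and 24 of the 26 genes passed the filter on low signal and were tested. CML28 and CML32 did not pass it.

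The samples are shoot bases of soil-grown japonica rice seedlings 21 days old, taken as 5 groups of 3 biological replicates: the lower and the upper flank at 6 h after reorientation, the lower and the upper flank at 0.5 h, and whole shoot bases at 0 h that had not been turned. All seedlings were kept dark for hours before turning, and turning took place under weak green light (no cultivar is named in the sources used here). Each array holds the RNA of a pool of many plants, and the p-values therefore cover the spread between pools only. The 0 h shoot bases were whole while the flanks were cut apart on ice, and no unturned sample of 0.5 h or 6 h was analysed here, so in every comparison with 0 h, and between the times, the effect of turning cannot be told apart from that of elapsed time, or at 0 h from that of cutting.

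Ca2+ enters the cytosol when a plant cell meets a mechanical, gravitational or wounding stimulus, and calmodulin binds it through paired helix-loop-helix motifs named EF hands. The loaded protein changes shape and attaches to kinases, pumps, channels and transcription factors, whose activity it changes. Calmodulin is among the most conserved proteins of eukaryotes, and the calmodulin-like (CML) proteins of plants share its EF hands but have diverged from it. In rice the CML genes were numbered by falling similarity of their products to calmodulin, so that low numbers lie closest to it. No sequence of these genes was read here.

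Each value is the log2 of an array signal minus the log2 of the median signal of that array, so that 0 is the median probe set and a difference of 1 is a factor of 2. Differences were fitted with limma over all 15 arrays and 28629 probe sets, and a gene is called where its Benjamini-Hochberg adjusted p is under 0.05. A bulk signal cannot tell fewer cells of a type apart from less RNA per cell. The replicate 1 arrays of the 5 groups stand apart from the other 10, with array medians of 22.8 to 29.6 against 17.2 to 23.0, and with signals of the added labelling control DapX of 107 to 209 against 16.5 to 26.3. Of the shoot meristem and stem base markers, the homeobox genes OSH1 and OSH71 had group means of 7.21 to 7.44 and 6.56 to 6.97. OSH6 and OSH43 were dimmer, at 3.93 to 4.26 and 0.85 to 2.74. The leaf marker RBCS1 and the root marker OsPT11 lay below the array median in every group. The other leaf markers, CAB2R (group means of 4.61 to 5.40) and OsrbcS (1.06 to 1.62), lay above it. So did the other root markers, Lsi1 (4.23 to 5.10), Lsi2 (1.56 to 3.53) and IRT1 (0.77 to 2.43).

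**Figure D1:**
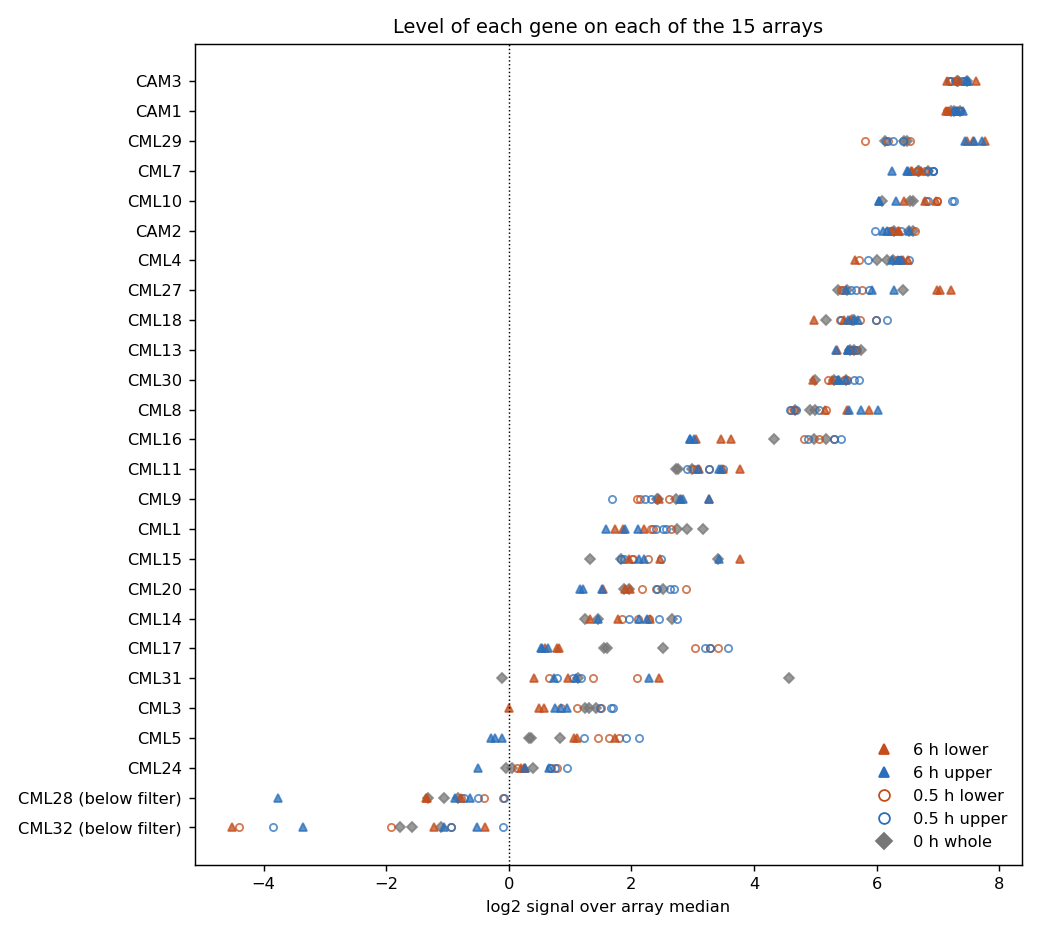
Log2 signal over the array median (horizontal axis) of the 26 genes on each of the 15 arrays, with 6 h flanks as triangles, 0.5 h flanks as open circles and 0 h whole shoot bases as diamonds. Genes are sorted by mean signal only for reading, since signals of different probe sets are not compared. CAM1, CAM3 and CML13 form tight clusters, CML17 and CML16 split by time, and 1 array at 0 h stands far from the rest for CML31.

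The 3 genes with a CAM name were bright and nearly flat. Their probe sets read mean log2 signals of 7.28 (CAM1), 6.32 (CAM2) and 7.35 (CAM3). A further entry described as a calmodulin, Os03g20370, is not among them, as its probe set is assigned to more than 1 gene. It was called between the 6 h flanks (log2 difference 0.56, limma adjusted p = 0.0135) and is given under the other observations. CAM1 carries the synonyms CAM1-1, CAM1-2 and CAM1-3, and whether its probe set reads 1 gene copy or several was not checked. Nor was it checked whether Os03g20370 is among these copies. The signal of CAM1 ranged over 0.27 log2 units across the 15 arrays. Its arrays read 7.13, 7.17 and 7.32 in the 6 h lower flank, against 7.30, 7.41 and 7.31 in the upper flank. The flanks overlapped, and the difference of −0.13 had a 95% interval of −0.35 to 0.09 (adjusted p = 0.645). CAM3 read 7.15, 7.34 and 7.62 in the lower flank at 6 h, against 7.49, 7.47 and 7.46 in the upper flank, so the lower-flank arrays lay on both sides of the upper-flank ones. Its difference was −0.10 (interval −0.38 to 0.17, adjusted p = 0.774), with a sign that turned without lower flank replicate 1. CAM2 read 6.36, 6.25 and 6.35 in the lower flank at 6 h, against 6.53, 6.16 and 6.11 in the upper flank, and the difference of 0.05 (interval −0.30 to 0.41, adjusted p = 0.921) turned its sign without 6 h upper flank replicate 3. In the comparisons with 0 h and between the times, the widest differences of the 3 genes were −0.08 for CAM1 (lower flank, 6 h against 0.5 h, interval −0.31 to 0.14), −0.26 for CAM2 at 0.5 h (upper flank against 0 h, interval −0.62 to 0.09) and −0.15 for CAM3 at 0.5 h (lower flank against 0 h, interval −0.42 to 0.12), none of them called. A change of 1 log2 unit thus lies outside each of these intervals.

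At 6 h, 2 of the 24 tested genes were called between the flanks, CML5 and CML27, both higher in the lower flank, where the shoot base elongates when it bends up. Among all probe sets tested, 1.75% were called in this comparison, 1.47% as higher and 0.283% as lower in the lower flank. The median difference over the 24 genes was 0.04, beside −0.08 over all probe sets. Of the 24 genes 5 had an unadjusted p under 0.05, and of all 28629 probe sets 3274. Both called genes stand in the study's own table of flank-dependent transcripts, which was chosen on these samples, so their direction here is not independent evidence. The study also measured OsCML27 by qRT-PCR in independent biological replicates, and those values were not used here. In CML5, CML7, CML10, CML16, CML20 and CML27 every lower-flank array lay above every upper-flank array, and in CML3 every one lay below. Only CML5 and CML27 of these were called. How many of all probe sets part the flanks in this way was not counted, so the list stands without a background.

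CML5, whose annotation also carries the name OsCAM-2, read 1.11, 1.74 and 1.06 in the lower flank at 6 h, against −0.29, −0.11 and −0.22 in the upper flank. The flanks lay more than 1 log2 unit apart at their nearest arrays. The group means were 1.30 ± 0.38 and −0.21 ± 0.09 (SD, n = 3 each), a 2.84-fold higher signal in the lower flank (log2 difference 1.51, SE 0.24, limma adjusted p = 0.00508). The call was kept in each of the 15 fits without 1 array, with differences of 1.29 to 1.63. The probe set used for CML5 is of the s_at kind, which may read more than 1 transcript, though the annotation assigns it to 1 gene. A further probe set of the gene, of mean signal −0.64, gave 2.40 in the same direction without a call (adjusted p = 0.362), and the mean of both probe sets gave 1.96 (adjusted p = 0.131). At 0.5 h the same gene read 1.64, 1.46 and 1.79 in the lower flank and 1.23, 2.13 and 1.91 in the upper flank, with overlapping flanks and a difference of −0.13 (interval −0.65 to 0.39). The flank difference at 6 h minus that at 0.5 h was 1.63 (interval 0.90 to 2.37, unadjusted p = 0.000361), which missed the threshold after adjustment over all probe sets (adjusted p = 0.0607).

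CML27 read 6.98, 7.03 and 7.21 in the lower flank at 6 h, against 5.50, 5.93 and 6.28 in the upper flank. Every lower-flank array lay above the highest upper-flank array. The means of 7.07 ± 0.12 and 5.90 ± 0.39 (SD, n = 3 each) make a 2.25-fold higher signal in the lower flank (log2 difference 1.17, SE 0.26, limma adjusted p = 0.0369). Leaving out 1 array gave differences of 0.97 to 1.36, and the adjusted p passed 0.05 without any 1 of 10 arrays. It was 0.0892, 0.112 and 0.104 when 6 h lower flank replicate 1, 2 or 3 was left out, and 0.138 and 0.111 for 6 h upper flank replicate 1 or 2. For 0.5 h lower flank replicate 2 or 3 it was 0.0574 and 0.0576, and for 0.5 h upper flank replicate 1, 2 or 3 it was 0.0552, 0.0564 and 0.0555. With replicates 2 and 3 alone the difference was 1.02 (adjusted p = 0.297). The gene's further probe set gave 0.69 in the same direction (adjusted p = 0.696). At 0.5 h its arrays read 5.76, 5.42 and 5.45 in the lower flank and 5.67, 5.58 and 5.87 in the upper flank, and the flanks overlapped (difference −0.17, interval −0.72 to 0.39). The change in flank difference between 6 h and 0.5 h was 1.34 (adjusted p = 0.202), and with the flank pairs as a replicate block it was called (adjusted p = 0.0457).

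CML10 had the third largest flank difference at 6 h. It read 6.45, 6.97 and 6.79 in the lower flank and 6.04, 6.32 and 6.04 in the upper flank, and the flanks did not overlap. The difference of 0.60 (SE 0.18, adjusted p = 0.152) was not called without the pairs, and with the flank pairs as a replicate block it was (adjusted p = 0.0336). At the negative end stood CML3, CML18 and CML8. CML3 read 0.00, 0.49 and 0.57 in the lower flank, against 0.75, 0.85 and 0.95 in the upper flank (difference −0.49, interval −0.88 to −0.11, adjusted p = 0.282). CML18 (−0.28) and CML8 (−0.26) had overlapping flanks and adjusted p of 0.647 and 0.670.

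Other values moved with the lower flank at 6 h. The brighter 5′ probe sets of the array's rice actin and GAPDH controls read 0.99 and 0.62 log2 units higher in the lower than in the upper flank, and the 3′ probe sets of the same controls 0.54 and 0.05. The cyclophilin control read 0.50 (5′) and 0.43 (3′), and the ubiquitin control 0.01 and −0.09. At 0.5 h, where no gene was called, the GAPDH 5′ difference was 0.84. Of 13 tested tissue markers, 1 was called between the flanks, the meristem homeobox gene OSH43 (log2 difference 1.76, adjusted p = 0.00215), while the summed signal of the 4 meristem markers was 248 to 311 times the array median in the lower flank and 300.4 to 327 times in the upper flank. Their part in the values of CML5 and CML27 was not tested.

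**Figure D2:**
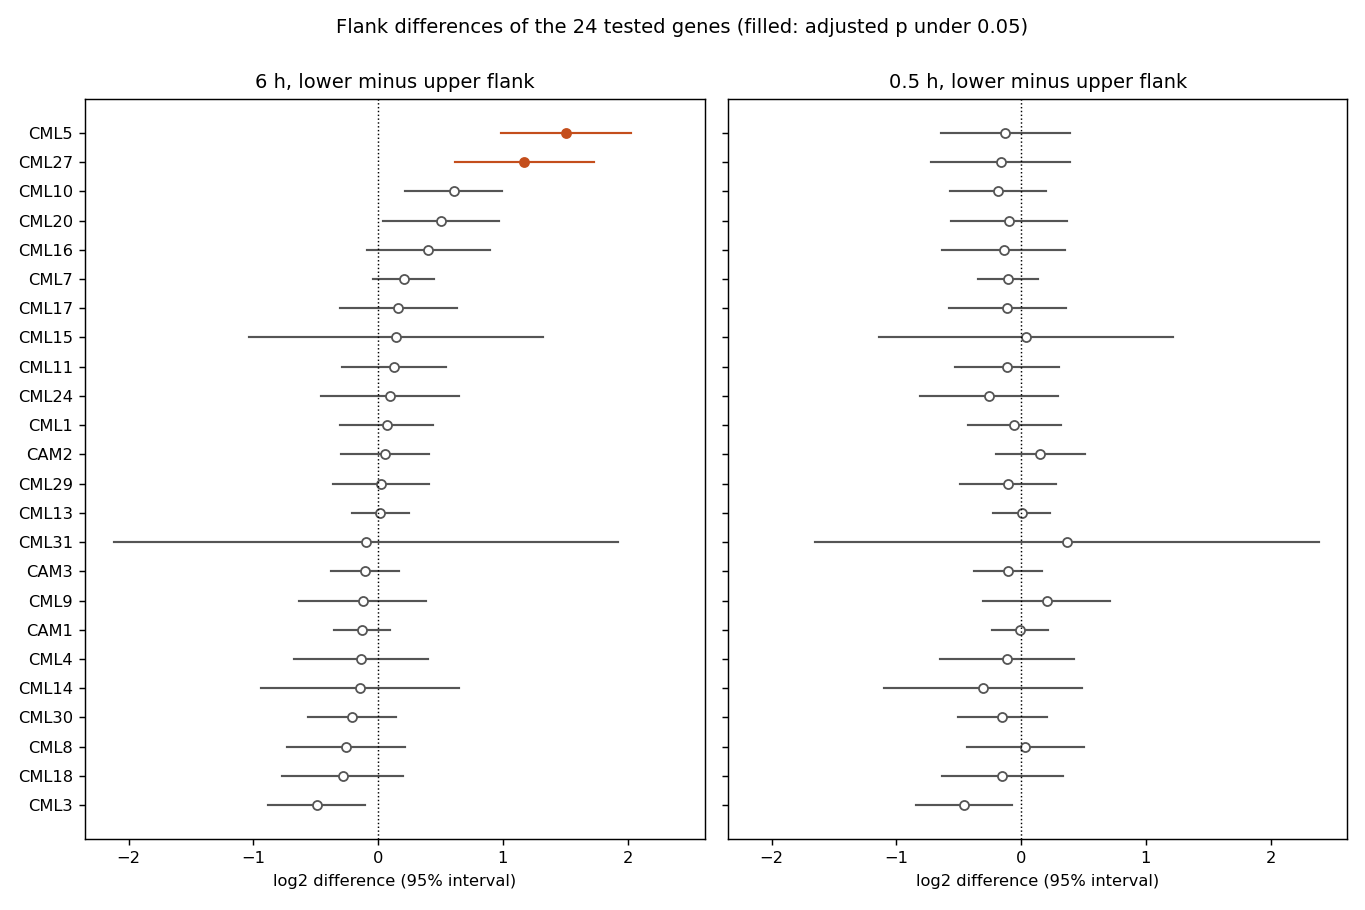
Lower minus upper flank in log2 units (horizontal axis), with the 95% interval from limma, for each of the 24 tested genes at 6 h (left) and at 0.5 h (right). At 6 h CML5 (1.51) and CML27 (1.17) are called and drawn filled. At 0.5 h no gene is called, and the widest intervals belong to CML31 and CML15.

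At 0.5 h no gene of the 24 was called between the flanks by limma, beside 0.00699% of all probe sets (2 of 28629). Of the 24 genes 1 had an unadjusted p under 0.05, and of all probe sets 916. The flanks overlapped in all 24 genes, and the share over all probe sets was not counted. The median difference was −0.11, beside −0.08 over all probe sets. That 1 gene was CML3, with 1.11, 0.86 and 1.504 in the lower flank, against 1.49, 1.66 and 1.70 in the upper flank (difference −0.46, unadjusted p = 0.0239, adjusted p = 0.992). CML14 (−0.31), CML24 (−0.26), CML31 (0.37), CML9 (0.20) and CAM2 (0.15) made up the rest of the widest 3 in each direction, each with an interval that includes 0. The change in flank difference between the times was called for 0 genes, beside 0.545% of all probe sets (0.496% with a positive and 0.0489% with a negative sign). An unadjusted p under 0.05 was found for 3 genes (CML5, CML27 and CML10), and for 1724 of the 28629 probe sets. For CML10 the change in flank difference was 0.79 (adjusted p = 0.381).

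Against 0 h, the same 2 genes were called in each flank at 0.5 h, CML17 and CML5, and both were higher. Of all probe sets, 1.63% were called for the lower flank (0.325% higher, 1.31% lower) and 1.68% for the upper flank (0.489% higher, 1.19% lower). The 2 comparisons share their 0 h arrays, so they do not count as separate evidence. CML17 read 2.51, 1.55 and 1.59 at 0 h. At 0.5 h it read 3.40, 3.04 and 3.28 in the lower flank and 3.20, 3.28 and 3.57 in the upper flank. All 6 flank arrays lay above the highest array at 0 h, which was replicate 1. The signal was 2.56-fold higher in the lower flank (log2 difference 1.36, SE 0.22, adjusted p = 0.0136) and 2.76-fold higher in the upper flank (1.47, SE 0.22, adjusted p = 0.0100). The lower-flank call was lost without 0.5 h lower flank replicate 1 (adjusted p = 0.0691) or replicate 3 (0.0540). Without centring, both calls were lost although the differences were 1.63 in the lower and 1.53 in the upper flank (adjusted p = 0.0519 and 0.0821), and they were lost with no filter (0.0803 and 0.0652) and with only the arrays of the comparison (0.225 and 0.175).

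CML5 read 0.83, 0.33 and 0.36 at 0 h, which was below each of its 6 flank arrays at 0.5 h. It was 2.18-fold higher in the lower flank (log2 difference 1.12, adjusted p = 0.0384) and 2.38-fold higher in the upper flank (1.25, adjusted p = 0.0260). The lower-flank call was lost without 9 of the 15 arrays. The adjusted p was 0.114 and 0.102 without 0 h replicate 2 or 3, 0.130, 0.0827 and 0.121 without 0.5 h lower flank replicate 1, 2 or 3, 0.0567 without 0.5 h upper flank replicate 3, and 0.0532, 0.0593 and 0.0560 without 6 h upper flank replicate 1, 2 or 3. The upper-flank call was lost without 0 h replicate 2 or 3 (adjusted p = 0.0760 and 0.0635) or 0.5 h upper flank replicate 2 or 3 (0.115 each). Without centring the differences were 1.402 in the lower and 1.31 in the upper flank, and both calls were lost (adjusted p = 0.0519 and 0.0821), as they were with no filter (0.164 and 0.115) and with only the arrays of the comparison (0.187 and 0.190). With replicates 2 and 3 alone the lower-flank call was lost (0.0785). CML10 was next, with differences of 0.51 for the lower and 0.70 for the upper flank (adjusted p = 0.164 and 0.0735). A replicate block shared by all 15 arrays gave a call for the lower and the upper flank (adjusted p = 0.0240 and 0.00806). That block also covers groups whose numbers do not pair.

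**Figure D3:**
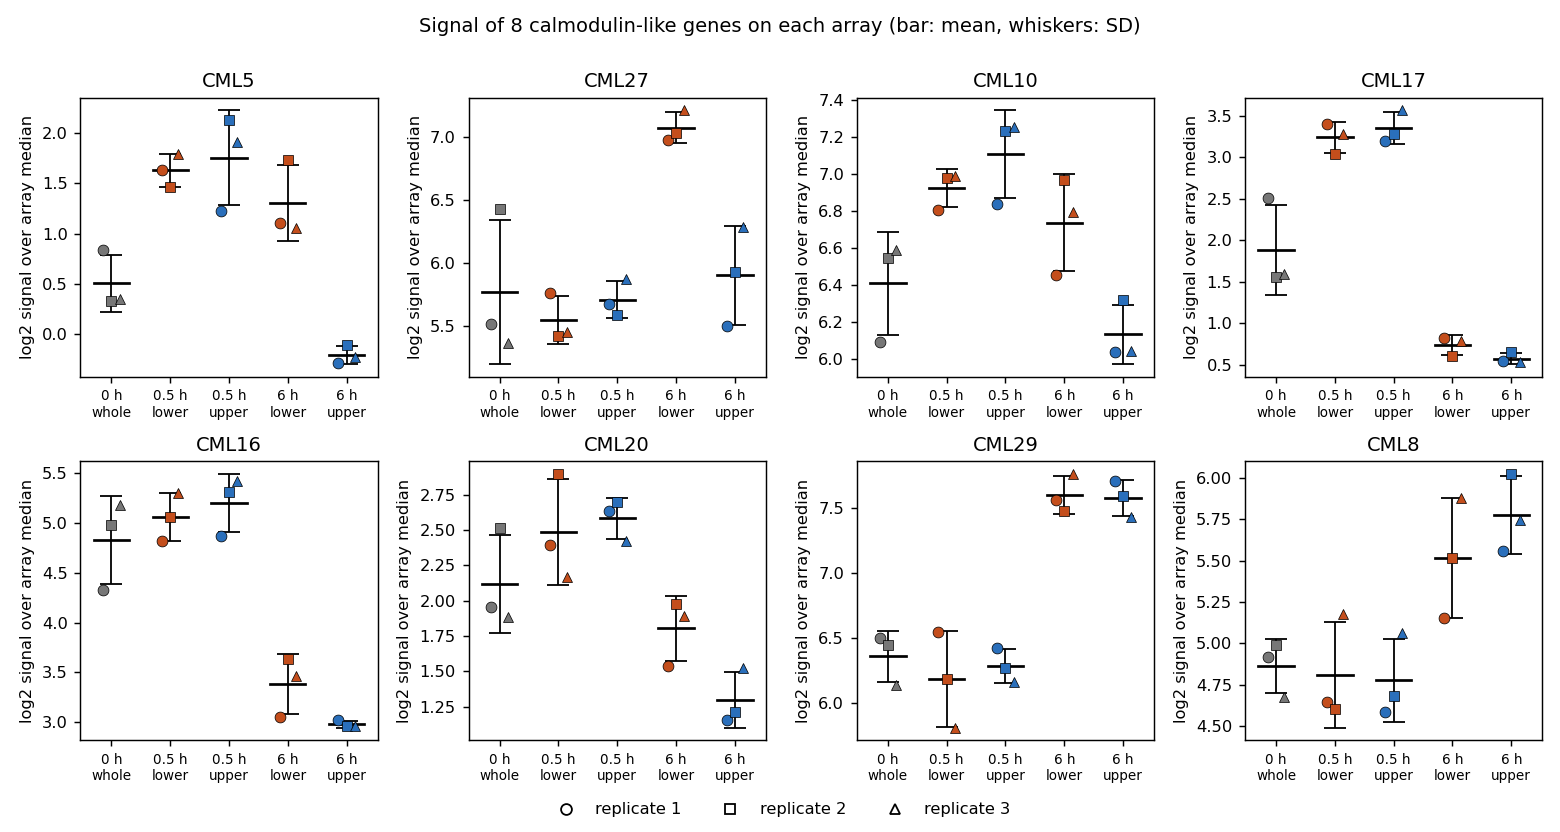
Log2 signal over the array median (vertical axis, its own scale in each panel) of 8 calmodulin-like genes in the 5 groups, with a marker shape for each replicate, a bar for the mean and whiskers for the SD (n = 3). CML5 and CML17 stand highest at 0.5 h in both flanks. At 6 h CML5, CML27, CML10, CML16 and CML20 have lower-flank arrays above all upper-flank arrays, and only CML5 and CML27 are called. CML29 is high and CML16 low in both flanks at 6 h.

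By 6 h the pattern had turned for CML17, and more genes were called, as over all probe sets. Against 0 h, 9 of 24 genes were called for the lower flank, 5 of them higher and 4 lower, beside 20.5% of all probe sets (6.21% higher, 14.3% lower). For the upper flank 7 were called, 2 higher and 5 lower, beside 23.4% (8.04% higher, 15.4% lower). Against 0.5 h, 8 genes were called for the lower flank, 3 higher and 5 lower, beside 24.3% (10.8% higher, 13.5% lower). For the upper flank 11 were called, 3 higher and 8 lower, beside 32.8% (13.9% higher, 18.9% lower). The genes' own shares in these 4 comparisons were 37.5%, 29.2%, 33.3% and 45.8%, each above its background, and no test was made of that gap. Of the 24 genes, 12 lie in the upper 10% of all probe sets by mean signal, so the background is not matched for signal. Without centring the arrays, the split became 3 higher and 4 lower in the lower flank against 0 h, and 2 higher and 9 lower in the lower flank against 0.5 h. The 2 comparisons of 6 h with 0.5 h share no array. In these, 7 genes (CML1, CML3, CML8, CML16, CML17, CML20 and CML29) were called in both flanks with the same sign, which is 87.5% of the lower-flank calls and 63.6% of the upper-flank calls. Over all probe sets the shares were 82.9% and 61.4%, so the overlap of the flanks in these genes was near that of the array as a whole.

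**Figure D4:**
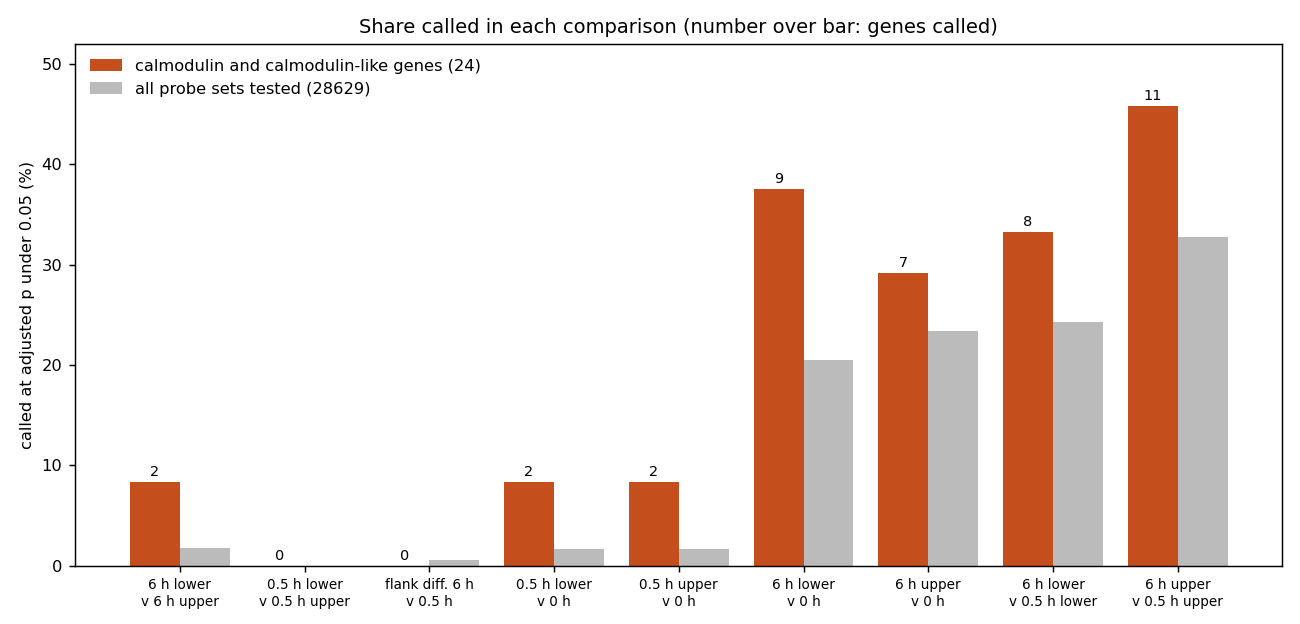
Share called at an adjusted p under 0.05 (vertical axis, percent) in the 9 comparisons, for the 24 tested calmodulin and calmodulin-like genes (left bar of each pair, with the number of genes) and for all 28629 probe sets (right bar). Both bars are far higher in the comparisons of 6 h with 0 h or 0.5 h than between the flanks.

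Among the genes lower at 6 h, CML17 changed most. It read 0.82, 0.60 and 0.79 in the lower flank and 0.54, 0.65 and 0.53 in the upper flank, so all 6 arrays lay below those at 0 h and at 0.5 h. Against 0.5 h it was 5.69-fold lower in the lower flank (log2 difference −2.51, adjusted p = 4.9e-06) and 6.87-fold lower in the upper flank (−2.78, adjusted p = 1.71e-06). Against 0 h it was 2.22-fold and 2.49-fold lower (adjusted p = 0.00260 and 0.000938), the first of these lost with only the arrays of the comparison (0.0543). CML17 was thus above its 0 h signal at 0.5 h and below it at 6 h, in each flank.

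CML16 was called at 6 h and not at 0.5 h. It read 4.33, 4.98 and 5.18 at 0 h, then 4.82, 5.06 and 5.30 in the lower and 4.87, 5.31 and 5.42 in the upper flank at 0.5 h. At 6 h it read 3.05, 3.63 and 3.47 in the lower flank and 3.02, 2.96 and 2.96 in the upper flank. No array at 6 h reached any array of the earlier times. The signal fell 2.73-fold in the lower and 3.60-fold in the upper flank against 0 h (adjusted p = 0.000812 and 0.000125), and 3.20-fold and 4.66-fold against 0.5 h (adjusted p = 0.000168 and 1.47e-05).

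CML1, also named OsCAM61, encodes a calmodulin with a C-terminal extension that can be prenylated and so tie the protein to a membrane. It read 2.74, 3.17 and 2.91 at 0 h, between 2.31 and 2.65 at 0.5 h on the 6 flank arrays, and by 6 h 1.73, 1.86 and 2.21 in the lower and 1.58, 1.90 and 2.11 in the upper flank. The 3 times did not overlap. It was 2.01-fold lower in the lower flank and 2.11-fold lower in the upper flank at 6 h than at 0 h (adjusted p = 0.00141 and 0.000785). Against 0.5 h the differences were −0.51 for the lower and −0.63 for the upper flank (adjusted p = 0.0486 and 0.0135). Both calls were lost with no filter (0.148 and 0.0528) and with replicates 2 and 3 alone (0.103 and 0.0585). The lower-flank call was also lost with only the arrays of the comparison (0.105) and with an intensity trend (0.0573). The call for the upper flank was lost without 6 h upper flank replicate 1 (0.0614), that for the lower flank without 10 arrays, with adjusted p of 0.0570 without 0 h replicate 3, 0.0591, 0.175 and 0.0791 without 0.5 h lower flank replicate 1, 2 or 3, 0.0587, 0.0627 and 0.0646 without 0.5 h upper flank replicate 1, 2 or 3, 0.147 and 0.123 without 6 h lower flank replicate 1 or 2, and 0.0640 without 6 h upper flank replicate 2.

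CML20 read 1.96, 2.51 and 1.88 at 0 h, and at 6 h 1.54, 1.98 and 1.89 in the lower and 1.16, 1.21 and 1.52 in the upper flank. The upper-flank arrays lay below those at 0 h, and the lower-flank arrays overlapped with them. It was 1.76-fold lower in the upper flank against 0 h (adjusted p = 0.0150), a call lost without 0 h replicate 2 (0.0556) or 6 h upper flank replicate 1 or 2 (0.0514 and 0.0513). Against 0.5 h, where its 6 arrays read 2.16 to 2.90, it was 1.60-fold lower in the lower flank (adjusted p = 0.0348) and 2.44-fold lower in the upper flank (0.000571). The lower-flank call was lost without 0.5 h lower flank replicate 1 or 2 (0.0582 and 0.151) or 6 h lower flank replicate 1 or 3 (0.115 and 0.0614). It was also lost with no filter (0.109), with only the arrays of the comparison (0.088) and with replicates 2 and 3 alone (0.198). The upper-flank call against 0 h was lost with no filter (0.0564) and with replicates 2 and 3 alone (0.0854).

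CML3 read 1.31, 1.43 and 1.24 at 0 h, above its 6 arrays at 6 h. It fell 1.96-fold in the lower flank against 0 h (adjusted p = 0.00213), while the upper-flank difference of −0.48 was not called (0.0701). Against 0.5 h it was lower in the lower flank by 1.75-fold and in the upper flank by 1.70-fold (adjusted p = 0.00522 and 0.00529). The lower-flank call against 0.5 h was lost with only the arrays of the comparison (0.0572) and with replicates 2 and 3 alone (0.0637). The annotated CML3 gene shares 378 bases with CIPK32, the gene of a CBL-interacting kinase, so its signal is uncertain. CIPK32 was itself lower at 6 h, with differences from 0 h of −0.66 in the lower and −0.79 in the upper flank (adjusted p = 0.00549 and 0.00145).

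CML5 was called in opposite directions in the flanks at 6 h. Against 0 h it was 1.74-fold higher in the lower flank (adjusted p = 0.0333) and 1.64-fold lower in the upper flank (adjusted p = 0.0484). The lower-flank call was lost without 0 h replicate 2 or 3 (0.0980 and 0.108) or 6 h lower flank replicate 2 (0.129). The upper-flank call was lost without 11 arrays, with adjusted p of 0.161, 0.0538 and 0.0724 without 0 h replicate 1, 2 or 3, 0.0597, 0.0592 and 0.0589 without 0.5 h lower flank replicate 1, 2 or 3, 0.0597 without 0.5 h upper flank replicate 3, 0.0511 without 6 h lower flank replicate 1, and 0.114, 0.0822 and 0.115 without 6 h upper flank replicate 1, 2 or 3. With log2(signal + 16) the upper-flank difference was −0.43, against −0.71, and not called (0.0964), and the call was also lost without centring (0.0786), with quantile normalization (0.0545), with an intensity trend (0.0657), with no filter (0.136) and with replicates 2 and 3 alone (0.156). The lower-flank call was lost without centring (0.0857), with no filter (0.103) and with only the arrays of the comparison (0.105). On all 3 upper-flank arrays at 6 h the gene read below the median of its array, a range of low precision. Against 0.5 h the upper flank fell 3.89-fold (log2 difference −1.96, adjusted p = 5.54e-05), a call kept without any 1 array, and the lower flank differed by −0.33 (adjusted p = 0.367). CML10 and CML7 were also lower in the upper flank than at 0.5 h, by 0.97 and 0.48 log2 units (adjusted p = 0.00113 and 0.00553), while in the lower flank the differences were −0.19 and −0.17 (adjusted p = 0.506 and 0.314). The difference between these changes had an unadjusted p of 0.00841 for CML10 and 0.0733 for CML7. A further CML10 probe set, of mean signal −3.83, gave 1.32 for the upper flank, the opposite sign.

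Among the genes higher at 6 h, CML29 was called in both flanks. It read 6.50, 6.44 and 6.14 at 0 h, then 6.55, 6.19 and 5.81 in the lower and 6.42, 6.27 and 6.16 in the upper flank at 0.5 h. At 6 h it read 7.57, 7.48 and 7.76 in the lower flank and 7.71, 7.59 and 7.43 in the upper flank. Every array at 6 h lay above every array of the earlier times. Against 0 h it was 2.37-fold higher in the lower and 2.33-fold higher in the upper flank (adjusted p = 0.000414 and 0.000407), and against 0.5 h 2.68-fold and 2.46-fold (adjusted p = 8.93e-05 and 0.000134). The flanks at 6 h differed by 0.02 (interval −0.36 to 0.41).

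CML8 read 4.92, 4.99 and 4.68 at 0 h, and 5.15, 5.52 and 5.88 in the lower and 5.56, 6.02 and 5.74 in the upper flank at 6 h. All 6 flank arrays lay above those at 0 h. It was 1.57-fold higher in the lower flank, where the adjusted p of 0.0499 stood at the threshold, and 1.88-fold higher in the upper flank (adjusted p = 0.00886). The lower-flank call was lost without any array except 0.5 h lower flank replicate 3 and 6 h lower flank replicate 1, with adjusted p of 0.0510 to 0.177. Against 0.5 h the gene rose 1.63-fold in the lower flank (adjusted p = 0.0312) and by 0.997 log2 units in the upper flank (0.00353), the first of these calls lost without 0.5 h lower flank replicate 1 or 2 (0.0978 and 0.116) or 6 h lower flank replicate 2 or 3 (0.0709 and 0.129). Without centring the lower-flank difference from 0.5 h was 0.38, against 0.71, and not called (0.173), and the lower-flank calls against 0 h and 0.5 h were also lost with no filter (0.143 and 0.0997), with only the arrays of the comparison (0.130 and 0.0981) and with replicates 2 and 3 alone (0.0537 and 0.0621).

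CML27 was called in the lower flank. It read 5.52, 6.43 and 5.36 at 0 h, and the lower flank at 6 h was 2.47-fold higher than that (adjusted p = 0.00334) and 2.89-fold higher than at 0.5 h (adjusted p = 0.000792). Both calls were kept in each fit without 1 array. In the upper flank the differences were 0.13 against 0 h and 0.19 against 0.5 h (adjusted p = 0.760 and 0.612). CML11 was 1.54-fold higher in the lower flank than at 0 h (adjusted p = 0.0364). This call was lost without 0 h replicate 1 or 3 (0.0899 and 0.102) or 6 h lower flank replicate 2 or 3 (0.0891 and 0.134). With no filter (0.116) and with only the arrays of the comparison (0.127) it was also lost. In the upper flank the CML11 difference of 0.50 was not called (0.0797). CML9, which lies next to CAM2 with no protein-coding gene between them in the RefSeq annotation, was 1.85-fold higher in the upper flank at 6 h than at 0.5 h (adjusted p = 0.0113). That call was lost without centring (0.0685), and without 0.5 h upper flank replicate 3 (0.0568) or 6 h upper flank replicate 2 (0.0523). In the lower flank its difference was 0.56 (0.106). The neighbour CAM2 differed by 0.07 in the upper flank (0.803).

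In these comparisons of 6 h with the earlier times, tissue markers moved as well. Of 13 tested markers, 3 were higher and 4 lower in the lower flank against 0 h, 5 and 4 in the upper flank, and against 0.5 h 3 and 4 in the lower and 2 and 4 in the upper flank. Among vascular and lignifying markers, the secondary wall cellulose synthase genes CESA4, CESA7 and CESA9 were lower and the sucrose transporter gene OsSUT1 was higher at 6 h in all 4 comparisons, each called. Of the root markers, the iron transporter gene IRT1 was higher (1.09 in the lower and 1.35 in the upper flank against 0 h) and the silicon transporter gene Lsi2 lower (−1.38 and −1.56), each called in all 4. The summed signal of the 4 vascular markers was 193 to 228 times the array median at 0 h, 182 to 265 times in the lower and 224 to 253 times in the upper flank at 0.5 h, and 136 to 175 times in the lower and 168 to 191 times in the upper flank at 6 h. Their part in the calmodulin-like results was not tested.

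The other 11 tested genes were called in none of the 9 comparisons by the main setting (CML18, CML24 and CML30 were called in 1 comparison or more under an alternative). They are the 3 genes with a CAM name and CML4, CML13, CML14, CML15, CML18, CML24, CML30 and CML31, and their group means spread over 0.13 (CAM1) to 0.86 (CML31) log2 units. CML13 and CML30 were steady, with SDs within groups of at most 0.25. CML4 ranged over 0.88 across all arrays, and its lowest arrays in the flank groups were the replicate 1 arrays. The probe sets of CML4 disagree, since its brightest gave 0.05 for the lower and 0.08 for the upper flank at 6 h against 0.5 h, and the next (mean signal 5.45) gave 0.93 and 1.11, which were not tested here as the gene's value. CML24, the dimmest tested gene with a mean of 0.37, read 0.25, 0.19 and 0.26 in the lower flank at 6 h, against 0.66, 0.27 and −0.51 in the upper flank, which bracketed them. The spread between replicates was widest for CML31 and CML15. CML31, known as the multi-stress-responsive gene OsMSR2, read 1.13, 4.57 and −0.12 at 0 h, so replicate 2 lay over 3 log2 units above the others. CML15 read 1.83, 3.40 and 1.32 at 0 h, and replicate 2 again stood highest. At 6 h the replicate 3 arrays were the high ones in both, with 2.45 in the lower and 2.29 in the upper flank for CML31, and 3.76 and 3.44 for CML15. With SEs of 0.93 and 0.54 for a difference between groups, a 2-fold change of these 2 genes, in at least 1 direction, lies inside the interval of each comparison.

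CML28 and CML32 had mean signals of −0.97 and −1.84, below the filter limit of −0.15. The tested genes nearest above that limit were CML24 (0.37) and CML5 (0.997). CML28 read −3.77 to −0.08 and CML32 −4.51 to −0.10 over the 15 arrays, and neither was called in any comparison when the filter was dropped.

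Other genes of Ca2+ signalling were matched by family name. Of 63 such genes with a probe set 54 were tested, among them 16 calcium-dependent protein kinase (CPK) genes, 6 genes of calcineurin B-like sensors (CBL) and 21 of the kinases that CBL proteins bind (CIPK). At 6 h 2 of 54 were called between the flanks, CIPK3 (log2 difference 1.27, adjusted p = 0.0101) and CIPK6 (0.82, adjusted p = 0.00592), both higher in the lower flank, beside 1.75% of all probe sets, with 8 at an unadjusted p under 0.05. At 0.5 h limma called 0 of 54, with 1 at an unadjusted p under 0.05. Over all 28629 probe sets, 3274 at 6 h and 916 at 0.5 h had such a p. The median differences of the 54 genes were −0.02 and −0.11. Against 0 h, 1 of 54 was called in each flank at 0.5 h, CIPK10, with differences of −0.74 for the lower and −0.76 for the upper flank. At 6 h its differences from 0 h were 3.80 and 3.84, and over the 54 genes 4 were higher and 6 lower in the lower flank, while 7 were higher and 11 lower in the upper one. Against 0.5 h the lower flank had 10 higher and 5 lower, and the upper flank 11 of each. These counts stand beside 20.5% and 23.4% of all probe sets called against 0 h, and 24.3% and 32.8% against 0.5 h, for the lower and the upper flank. The sensor gene CBL4 and the kinase gene CPK9 were lower in each of these 4 comparisons, with differences from 0 h of −1.48 and −1.45 for the lower and −1.78 and −1.65 for the upper flank.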

How the data were processed

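The values deposited are linear signal intensities of probe sets, made by the authors in GCOS (MAS5 per the labels) from amplified, biotin-labelled RNA on Affymetrix rice arrays; detection calls were not used here. Of 57381 probe sets, 123 controls were left out and the upper 50% by mean log2 signal were kept (28629). Of all probe sets, 22436 carry 1 gene, 95 several and 34850 none in the platform annotation. Names came from the RefSeq gene table (assembly ASM3414082v1), matched by gene ID. Log2 signals were centred on each array's median. Group means over 15 arrays were estimated in limma 3.58.1 (R 4.3.3) with moderated variances (residual degrees of freedom 10, prior 2.67), in 9 comparisons, and the script was tested on simulated data. The study's random variance ANOVA was not run. The number of arrays limits the precision.

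The genes and lists were chosen with earlier results of these data known. Named genes are every CaM gene, CML5, CML17, CML27, every gene called, the 3 highest and 3 lowest by mean signal, and the 3 widest flank differences in each direction. Replicate numbers were checked for pairing by the correlation of deviations from group means over all tested probe sets. Same-numbered flank samples, whose labels share only the number, correlated at 0.476, 0.261 and 0.408 at 6 h and 0.499, 0.224 and 0.242 at 0.5 h, and the 0.5 h lower flank and 0 h at 0.417, 0.155 and 0.290. The 6 h and 0.5 h upper flanks also correlated, at 0.298, 0.175 and 0.098. The main fit has no block, so its p-values do not use pairs, and the replicate block is given where it changes a call. Between flanks the block was the flank pair within each time. In the other comparisons it was 1 effect per replicate number, shared by all 15 arrays. That block covers groups whose numbers do not pair, as 6 h and 0 h for replicate 3 (−0.283 upper, −0.3 lower flank). Alternatives were no centring, quantile normalization, no filter, the upper 30%, log2(signal + 16), an intensity trend, only the arrays of a comparison, leaving out each array, replicates 2 and 3 alone, the replicate block and other probe sets of a gene.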

Additional observations from a re-analysis of the deposited data

Results flagged for a closer look

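The change from 0 h to 6 h differed between the flanks for CML5 and CML27. The 0 h arrays cancel out of that difference, so this is the same test as that between the 6 h flanks. Its call for CML27 was lost without any 1 of 10 arrays. For CML5 the lower-flank change exceeded the upper-flank change by 1.51 log2 units, being 0.80 in the lower and −0.71 in the upper flank. For CML27 it did so by 1.17, being 1.30 in the lower and 0.13 in the upper flank. With 3 arrays per group, no rule for single arrays far from the others was applied, and those named for CML31 and CML15 are given as values only.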

How the results depend on the processing

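Of the 41 calls of single genes, 27 were kept in every fit without 1 array and 14 were lost in at least 1. Without 1 array the count of called genes was 1 to 2 between the 6 h flanks, 0 to 0 between the 0.5 h flanks, 0 to 1 for the change in flank difference, 0 to 2 and 1 to 2 in the lower and upper flank at 0.5 h against 0 h, 6 to 9 and 5 to 7 at 6 h against 0 h, and 5 to 8 and 10 to 11 at 6 h against 0.5 h. Between the 6 h flanks 1 gene was called without centring, with no filter, with the upper 30%, with only the arrays of the comparison and with replicates 2 and 3 alone. At 0.5 h against 0 h, no centring, no filter and only the arrays of the comparison left 0 in each flank by limma, the upper 30%, where CML5 and CML17 are not tested, called 0 in the lower and 1 (CML10) in the upper flank, and replicates 2 and 3 alone left 1 in the lower flank. The upper 30% tests 15 of the 24 genes and lost no call among these. It called 5 (lower) and 4 (upper) at 6 h against 0 h, and 4 (lower) and 6 (upper) against 0.5 h. Only the arrays of the comparison left 5 in the lower flank against 0 h and 4 against 0.5 h, where no filter left 5, and replicates 2 and 3 alone called 5, of which 4 were called before. Without centring 7 of 8 calls in that comparison were kept and CML7, CML10, CML18 and CML30 were gained. The replicate block gave 1 gene for the change in flank difference, CML27. It moved the calls over all probe sets from 502 to 1070 between the 6 h flanks and from 467 to 1891 for the 0.5 h lower flank against 0 h. Where numbers do not pair the samples, it added CML10 at 0.5 h (upper flank against 0 h, adjusted p = 0.00806), and at 6 h against 0 h CML10 in the lower (0.0409) and CML3, CML7 and CML11 in the upper flank (0.0370, 0.0155 and 0.0145), and it changed no other call. Between the 6 h flanks, CML10 was also called with quantile normalization (adjusted p = 0.0311) and log2(signal + 16) (0.0328). Differences between the 6 h flanks without 1 array were −0.23 to 0.0049 for CAM3 and −0.026 to 0.19 for CAM2. Signs turned, for values without a call, in CAM3 between the 6 h flanks (0.012 with replicates 2 and 3 alone, 0.0049 without 6 h lower flank replicate 1) and CAM2 (−0.026 without 6 h upper flank replicate 3), and, for a call, in CML10 at 6 h against 0.5 h in the upper flank (0.17 with the mean of its probe sets and 1.32 with its further probe set, whose mean signal is −3.83). Otherwise causes were not tested. For 48 single-gene results, 41 of them called, followed over all settings, 995 values kept their direction and side of the threshold, 146 lost a call, 3 gained one (all CML10 between the 6 h flanks) and 5 turned. This tally does not count calls gained by other genes. Centring took out the same shift for every gene, largest at −0.33 between 6 h and 0.5 h in the lower flank, 0.28 between the 0.5 h lower flank and 0 h, and 0.22 between the 0.5 h flanks. Signals below the array median are imprecise, which touches CML28, CML32, CML5 in the upper flank at 6 h, single arrays of CML3, CML24 and CML31, and the further probe sets of CML5, CML10 and CML27.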

Other observations

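The study's tables of flank-dependent transcripts hold 4 further EF-hand entries that were not counted among the genes above. They were picked out after the tables had been seen, and the tables were chosen on these samples. A calmodulin entry at Os03g20370, whose probe set is assigned to more than 1 gene, averaged 7.56 ± 0.08 in the 6 h lower flank and 7.003 ± 0.12 in the 6 h upper flank (SD, n = 3 each), a log2 difference of 0.56 (limma adjusted p = 0.0135). It was thus brighter in the lower flank by less than 2-fold, with close replicates. The EF-hand protein gene Os09g30506 averaged 3.27 ± 0.34 in the 6 h lower flank and 0.22 ± 0.50 in the upper flank, a difference of 3.05 (adjusted p = 0.00524), while its means at 0.5 h were 0.41 and 0.40 in the lower and upper flank. Os09g31000 and Os09g31040 were not called between the 6 h flanks (differences −0.75 and 0.96, adjusted p = 0.607 and 0.561). Os09g31000 was lower at 6 h than at 0.5 h in the lower flank, by −2.47 (adjusted p = 0.00368).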
